A study of Homo sapiens with 16 samples.

Results

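The regions described here carried an H3K27ac peak in every list from untreated control cells of both MDA-MB-231 and Hs578T and in no list from TWEAK-treated control cells of either line. There were 742 of them among 55219 consensus regions, or 1.34%. They were chosen by the presence of peaks in the 8 control lists, so their presence in the 4 control untreated lists and their absence from the 4 control TWEAK lists are the rule and not a result. The 8 lists from Fn14 knockout (KO) cells took no part in choosing them. To obtain them, peaks from the 16 lists that overlapped by 1 bp or more were joined, and the joined regions found in 2 or more lists formed the consensus. In what follows these 742 regions are called the lost regions or the members, where lost means that the peak caller listed no peak and not that acetylation was measured as zero. In bulk chromatin, fewer cells with the mark and less of it per cell cannot be told apart.

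Both cell lines are established human triple-negative breast cancer lines. The study worked with CRISPR control cells and with Fn14 KO cells of each line, the latter made with 2 guide RNAs against the receptor gene, and each genotype was either left untreated or given TWEAK at 10 ng/ml for 48 h with a replenishment after 24 h. Cells of all 8 groups had first been starved of serum for 8 h. Each group had 2 replicates, which the methods describe as biological. Per the methods the KO cells were identified by western blot and verified by Sanger sequencing, and the genotyping primers are headed as being for clones, without the number of clones per line. Peak lists cannot show whether the receptor gene was cut, so the genotype was not checked here.

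Acetylation of lysine 27 on histone H3 is laid down at active promoters and enhancers, and the loss of the mark from an enhancer commonly accompanies its decommissioning. TWEAK is a cytokine of the tumour necrosis factor superfamily, and Fn14, encoded by TNFRSF12A, is its receptor. Signalling through Fn14 is best known for activating NF-κB factors and the kinases upstream of AP-1.

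The 16 lists held between 39544 and 47197 peaks. Sequencing depth is unknown, because peak lists hold no reads. Promoters of VIM, CD44, EGFR, AXL and CAV1, which mark mesenchymal-like breast cancer lines, had a peak in all 16 lists, and those of ESR1, PGR, PTPRC and CD3E in none. Some promoters set down as ones these cells should lack did carry a peak, namely GATA3, ERBB3, EPCAM and PECAM1 in all 16 lists, CD14 and CDH5 in 6 and FOXA1 in 2. One pair of replicates stood apart. MDA-MB-231 Fn14 KO untreated replicate 1 had 46295 peaks and replicate 2 had 39544. The TWEAK and line comparisons in KO cells, and the counts lost or gained in MDA-MB-231 KO cells, are given with and without each. Other shares and counts use both.

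Members were ranked by their weakest showing in untreated control cells, that is, the lowest of the 4 percentiles of the −log10 q-value within each list, where 100 is the strongest peak of a list. The central 300 bases of the members ranked 1 to 5 and 7 are printed below, 5′ to 3′ on the plus strand of hg38, because these ranked among the highest of the members. Their lowest percentiles ran from 63.2 (SPARC) to 47.0 (C20orf85), so they were not among the strongest peaks of the untreated lists. Capitals mark matches, on either strand, to the AP-1 motif TGANTCA, the TEAD motif GGAATG or the RUNX motif TGTGGT. The windows near SPARC, TTC7B, STX16 and C20orf85 hold an AP-1 match, that of TTC7B also a TEAD match, and those near TTLL2 and AK9 hold none of these 3 motifs. Over all members an AP-1 match was in 28.7% of such windows, beside 26.1% of all consensus regions. Away from start sites the shares were 29.8% of members and 31.7% of consensus regions. Regions lost in MDA-MB-231 or Hs578T only held one in 30.0% and 32.0%.
SPARC member, chr5:151694084-151694383: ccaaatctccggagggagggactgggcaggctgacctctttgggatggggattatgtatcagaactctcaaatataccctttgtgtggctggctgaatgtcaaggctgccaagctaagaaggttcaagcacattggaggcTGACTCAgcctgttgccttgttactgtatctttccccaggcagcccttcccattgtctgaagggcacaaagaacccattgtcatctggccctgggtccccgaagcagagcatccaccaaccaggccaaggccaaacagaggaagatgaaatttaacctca
TTLL2 member, chr6:167309934-167310233: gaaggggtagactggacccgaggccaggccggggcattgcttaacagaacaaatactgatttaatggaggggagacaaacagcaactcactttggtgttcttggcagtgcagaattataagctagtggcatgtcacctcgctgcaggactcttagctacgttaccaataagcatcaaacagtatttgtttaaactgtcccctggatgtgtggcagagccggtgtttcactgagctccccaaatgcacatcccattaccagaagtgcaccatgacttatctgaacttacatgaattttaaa
TTC7B member, chr14:90513112-90513411: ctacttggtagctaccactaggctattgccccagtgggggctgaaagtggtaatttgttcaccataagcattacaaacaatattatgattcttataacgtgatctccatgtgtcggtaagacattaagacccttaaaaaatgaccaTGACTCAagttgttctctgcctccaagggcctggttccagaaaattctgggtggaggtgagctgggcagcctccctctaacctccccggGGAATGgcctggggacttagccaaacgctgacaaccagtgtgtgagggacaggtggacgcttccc
AK9 member, chr6:109513846-109514145: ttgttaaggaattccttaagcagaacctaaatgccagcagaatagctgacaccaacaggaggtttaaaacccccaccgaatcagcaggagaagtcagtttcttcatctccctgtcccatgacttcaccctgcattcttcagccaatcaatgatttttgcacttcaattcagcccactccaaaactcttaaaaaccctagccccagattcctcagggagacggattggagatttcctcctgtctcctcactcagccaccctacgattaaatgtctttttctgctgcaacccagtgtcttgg
STX16 member, chr20:58645509-58645808: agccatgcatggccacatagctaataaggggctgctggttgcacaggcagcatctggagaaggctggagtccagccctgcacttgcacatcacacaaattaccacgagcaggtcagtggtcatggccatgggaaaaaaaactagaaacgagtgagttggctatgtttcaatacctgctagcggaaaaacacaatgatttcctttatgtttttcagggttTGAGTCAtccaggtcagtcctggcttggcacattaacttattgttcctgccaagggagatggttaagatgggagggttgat
C20orf85 member, chr20:58102610-58102909: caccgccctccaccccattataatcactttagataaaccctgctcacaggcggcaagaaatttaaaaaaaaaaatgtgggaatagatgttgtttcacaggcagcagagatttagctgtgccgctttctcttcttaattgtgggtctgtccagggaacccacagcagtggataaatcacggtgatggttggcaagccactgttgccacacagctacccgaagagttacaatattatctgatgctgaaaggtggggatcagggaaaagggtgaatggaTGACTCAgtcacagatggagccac

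Of the 20 highest-ranked members, 12 lay between genes, 6 in introns and 2 touched an exon, and none lay near a start site. The nearest protein-coding start site was between 4.74 and 324 kb away. The member ranked first was chr5:151693302-151695165, between genes and 6.33 kb from a start site of SPARC, which encodes a secreted glycoprotein of the extracellular matrix. Its fold enrichment over background was 12.5 and 11.6 in the MDA-MB-231 untreated control replicates and 7.43 and 8.86 in those of Hs578T, against a median of all regions in those lists of 5.36 to 5.82. The MDA-MB-231 Fn14 KO lists gave 8.79 and 6.62 untreated and 7.60 and 6.55 with TWEAK. In Hs578T Fn14 KO cells it was 6.78 and 9.41 untreated and 7.45 and 8.38 with TWEAK. Within both KO lines the treated and untreated values overlapped, and no KO list missed the region, whereas no peak was listed in any of the 4 control TWEAK lists. A second member, chr5:151684481-151685754, held a start site of SPARC itself, and its peaks were weaker, at 3.82 to 4.77-fold in untreated control cells. It was present in all 8 KO lists as well. MDA-MB-231 KO cells gave 5.09 and 4.36-fold untreated and 3.75 and 4.19-fold with TWEAK. Hs578T KO cells gave 3.23 and 3.32-fold untreated and 2.93 and 2.78-fold with TWEAK. At this member the treated values thus lay below the untreated ones in both KO lines, which was not tested.

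The second-ranked member, chr6:167308689-167311479, lay in an intron and 13.6 kb from a start site of TTLL2, a member of the tubulin tyrosine ligase-like family. Its fold enrichment was 9.57 and 12.5 in untreated control MDA-MB-231 cells and 7.47 and 9.97 in Hs578T. In Hs578T KO cells it stood at 17.4 and 11.9 untreated and 15.0 and 13.7 with TWEAK, all above the untreated control cells of that line, while MDA-MB-231 KO cells gave 5.92 to 8.41, all below theirs. The third, chr14:90511621-90514903, was 95.9 kb from a start site of TTC7B, which belongs to a complex that anchors a phosphatidylinositol kinase at the plasma membrane. Here too the Hs578T KO lists, at 13.8 to 15.5-fold, exceeded the untreated control lists of the line at 11.2 and 10.3. The MDA-MB-231 KO lists gave 5.56 to 8.0-fold, around the 6.83 and 6.08 of untreated control cells. Ranks 4 and 5 were chr6:109512934-109515058, 6.52 kb from AK9, an adenylate kinase family gene, and chr20:58644785-58646532, 4.74 kb from STX16, a syntaxin of the endosome to Golgi route. At the AK9 region the KO lists again split by line, with 4.36 to 5.06-fold in MDA-MB-231 and 7.99 to 8.98-fold in Hs578T, against 6.10 to 7.13 and 7.35 to 8.15 in untreated control cells. At the STX16 region the values were 4.32 to 5.30 and 6.19 to 6.80 in the KO lists and 5.11 to 6.27 in untreated control cells. Another STX16 member, at chr20:58640199-58641294, was 9.98 kb from a start site and also had a peak in all 8 KO lists.

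**Figure D1:**
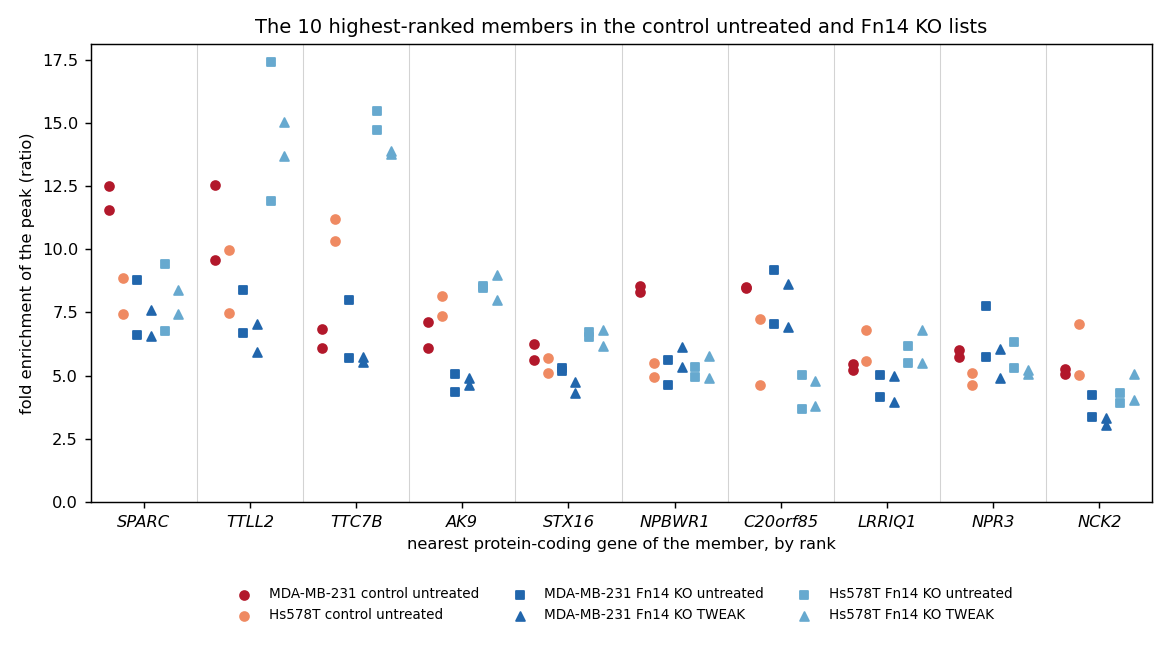
Fold enrichment (ratio over background, linear axis) of the 10 highest-ranked members, named by nearest gene, in each control untreated list (circles) and each Fn14 KO list (squares untreated, triangles TWEAK). Each point is 1 list and control TWEAK lists are not drawn because none had a peak. All 80 KO values are present, and at TTLL2 and TTC7B the Hs578T KO points lie at 11.9-fold or more.

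Among the 20 highest-ranked members, 18 had a peak in all 8 KO lists, and 157 of the 160 combinations of member and list held one. The 2 exceptions were both incomplete in MDA-MB-231 only. The member 264 kb from MAD2L1, a spindle checkpoint gene, had a peak in 2 MDA-MB-231 KO lists, 1 untreated and 1 TWEAK, and the one 83.5 kb from PLEKHA5 in 3. Others of this group were near NPBWR1, a receptor for neuropeptides B and W, LRRIQ1, NPR3, the clearance receptor for natriuretic peptides, NCK2, an adaptor of receptor tyrosine kinases, and PAX8, a paired box transcription factor. The PAX8 member, 8.27 kb from a start site, reached 9.52 to 10.5-fold in Hs578T KO lists and 3.31 to 4.60-fold in those of MDA-MB-231. PLXNA4, a semaphorin receptor, SVIL, which binds actin, AFF3, ATP6V1H, TMPRSS5, DISC1 and KCTD7 completed the 20. Judged by the lowest percentile over the KO lists, the strongest of the members present in all 8 were those of SPARC, TTLL2, TTC7B, NPR3 and TNFRSF11B, the last encoding osteoprotegerin, a soluble decoy receptor of the same superfamily as Fn14. At the TNFRSF11B member, 113 kb from a start site, the KO lists gave 4.51 to 5.90-fold and the untreated control lists 3.41 to 6.0-fold.

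Most members were weaker than these. Their median fold enrichment in the control untreated lists was 3.32 and 3.53 in MDA-MB-231 and 3.57 and 3.39 in Hs578T. The median percentile of the −log10 q-value within a list was 17.7, 23.5, 24.5 and 21.9 in the same order, so the typical member sat below percentile 25 of its list. The weakest of a member's 4 peaks lay above percentile 50 in 5 members, those near SPARC, TTLL2, TTC7B, AK9 and STX16, above percentile 25 in 91 and below percentile 10 in 357. Where all 4 untreated peaks were required to have a −log10 q-value of at least 2, a condition added after the data were seen, 377 members remained. Regions just outside the rule were also weak. The 611 regions with a peak in 4 untreated lists and 1 TWEAK list had a median percentile of 24.4 and the 821 with 3 untreated lists and no TWEAK list one of 14.5, beside 22.1 in the members and 64.1 in the 30477 regions listed in all 8 control lists.

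**Figure D2:**
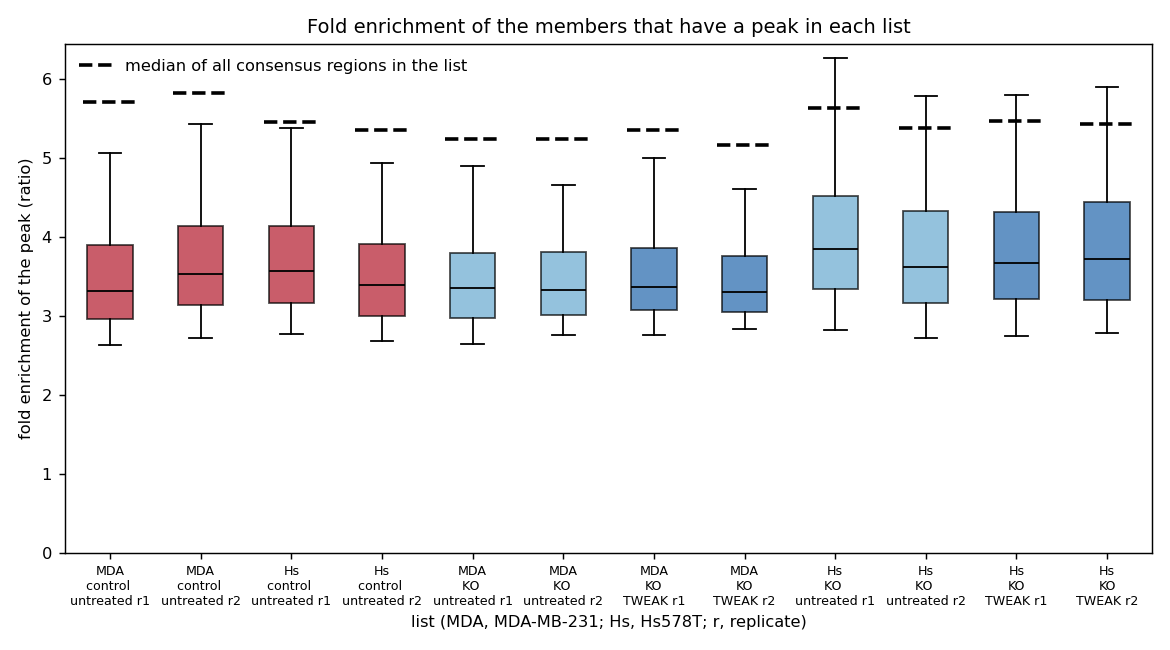
Fold enrichment (ratio over background) of members with a peak in each of the 4 control untreated and 8 Fn14 KO lists. Boxes give the quartiles and median, whiskers the percentiles 5 and 95, and dashed lines the median of all consensus regions in that list. Member medians lie between 3.31 and 3.85 in every list, below dashed lines at 5.17 to 5.82.

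Whether the lost regions were acetylated without the receptor was asked in the KO lists. In Hs578T Fn14 KO cells 88.7% and 86.7% of members had a peak in the untreated replicates and 88.4% and 87.9% in the TWEAK replicates. Among the MDA-MB-231 Fn14 KO lists it was 77.2% and 47.2% untreated and 58.0% and 51.5% with TWEAK. Hs578T values were therefore nearly level, while the spread among MDA-MB-231 lists was set mainly by untreated replicate 1. The share after TWEAK, which is 0 in control cells by the rule, was 88.1% ± 0.381 (SD, n = 2) in Hs578T KO cells and 54.7% ± 4.57 (SD, n = 2) in MDA-MB-231 KO cells. Of all consensus regions, 77.4 to 78.1% had a peak in a given Hs578T KO list and 65.8 to 77.5% in a given MDA-MB-231 KO list.

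TWEAK did not detectably move the members' share in KO cells. The difference between TWEAK and untreated lists was 0.472 percentage points in Hs578T and -7.48 in MDA-MB-231, with a mean of -3.50 (exact permutation test, two-sided, p = 0.889, adjusted p = 0.889 over 5 tests). The smallest p that the 36 arrangements allow is 0.0556, so this comparison could not have passed 0.05. The mean became 4.07 percentage points without MDA-MB-231 KO untreated replicate 1 and -11.0 without replicate 2 (p = 0.389 and 0.222 by the exact permutation test). Strength behaved likewise. Among the 564 members with a peak in all 4 Hs578T KO lists the median fold enrichment was 3.95 and 3.74 untreated and 3.79 and 3.82 with TWEAK, and among the 215 in all 4 MDA-MB-231 KO lists it was 3.87 and 3.45 untreated and 3.66 and 3.43 with TWEAK. On the log2 scale the mean difference of these medians was -0.029 (exact permutation test, p = 0.611, adjusted p = 0.764), 0.012 without the same untreated replicate 1 and -0.051 without replicate 2.

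The members were more often present in Hs578T than in MDA-MB-231 KO cells. The mean share was 87.9% ± 0.897 (SD, n = 4) against 58.5% ± 13.3 (SD, n = 4), a difference of 29.4 percentage points, and every Hs578T list exceeded every MDA-MB-231 list (exact permutation test, two-sided, p = 0.0286, the smallest that 70 arrangements allow, adjusted p = 0.0476). When any 1 of the Hs578T KO lists was left out the difference stayed at 29.2 to 29.8 percentage points. The p of the exact test then rose to 0.0571. The call was lost too when labels were exchanged within treatment, where the smallest p is 0.0556. Without MDA-MB-231 KO untreated replicate 1 the difference was 35.7 percentage points and without replicate 2 it was 25.7, each with p = 0.0286 in the exact test. All consensus regions differed in the same direction by less, with means of 77.7% and 70.1%. The median −log10 q-value of all consensus regions also differed, at 6.20 to 8.34 in MDA-MB-231 KO lists and 8.86 to 9.26 in those of Hs578T. Its part in the difference was not tested. With every list trimmed to the length of the shortest, the difference was 20.4 percentage points (p = 0.0286 in the exact test).

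**Figure D3:**
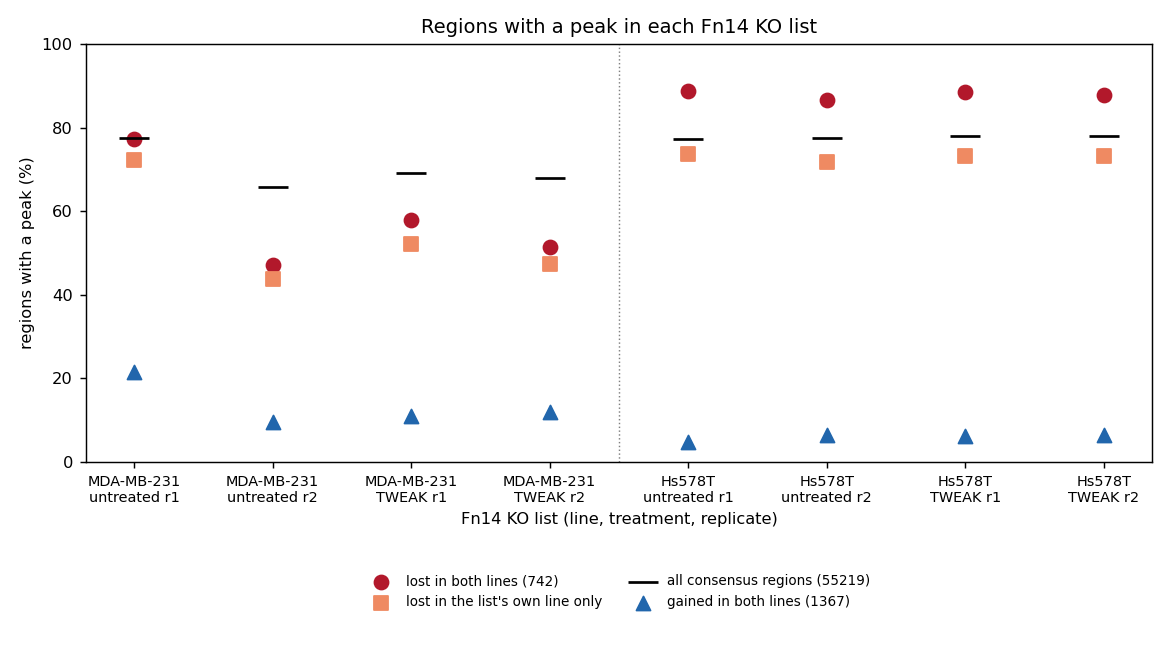
Percentage of regions with a peak in each of the 8 Fn14 KO lists, for members (circles), regions lost in that line only (squares), all consensus regions (dashes) and regions gained in both lines (triangles). Circles lie at 86.7 to 88.7% in Hs578T and at 47.2 to 77.2% in MDA-MB-231, and triangles at 21.6% or less.

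For comparison, other sets were formed by related rules. Regions lost in control cells of 1 line only numbered 1739 in MDA-MB-231 and 1823 in Hs578T, and regions gained in both lines, with a peak in all 4 control TWEAK lists and no control untreated list, numbered 1367. In each of the 8 KO lists the members were more often present than the regions lost in that line only, by 14.6 to 15.2 percentage points in Hs578T and by 3.41 to 5.80 in MDA-MB-231 (mean 9.74, exact paired permutation test, two-sided, p = 0.0078, the smallest possible, adjusted p = 0.0195). The rules were unequal, since members needed a peak in 4 untreated control lists and the other sets only in the 2 of their line. Regions with 3 untreated lists and no TWEAK list had a peak in 52.7% of cases in KO lists, beside 73.2% for members. The part of this inequality in the difference was not tested. In MDA-MB-231 the difference rested on the control lists used to form the sets. Without Hs578T control untreated replicate 2 the members were lower in all 4 MDA-MB-231 KO lists, by differences from -3.90 to -0.531, and the test gave p = 0.125 by exact permutation. Without Hs578T control untreated replicate 1 they were higher in 3 of 4. In Hs578T they were higher in every KO list under each omission. Against regions gained in both lines, of which only 4.83 to 21.6% had a peak in a KO list, the members were higher by 63.4 percentage points on average and in all 8 lists (exact paired permutation test, p = 0.0078, adjusted p = 0.0195), and no omission of a list ended this call.

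Counted region by region, 189 members (25.5%) had a peak in all 8 KO lists, 449 (60.5%) in 6 or more and 13 (1.75%) in none. Of the regions gained in both lines, 897 (65.6%) had no peak in any KO list and 2 had one in all 8. All consensus regions were not counted in this way, so these counts do not show members as held more often than other regions. The 30477 regions listed in all 8 control lists had a peak in 98.3% of cases in KO lists, beside 73.2% for members. The commonest pattern among members, in 304 (41.0%), was a peak in all 4 Hs578T KO lists and in 1 to 3 of those of MDA-MB-231. A further 71 (9.57%) were present in all 4 Hs578T lists and absent from MDA-MB-231. The opposite pattern, all 4 MDA-MB-231 and no Hs578T list, was found in 5 members, named after their values were seen, near PCTP, ZHX2, TRPS1, DUSP7 and BDNF. The PCTP member, an intronic region at chr17:55813645-55815422, had peaks of 3.21 to 4.57-fold in the MDA-MB-231 KO lists and 4.19 to 7.32-fold in untreated control cells, including 7.32 and 4.19 in Hs578T.

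**Figure D4:**
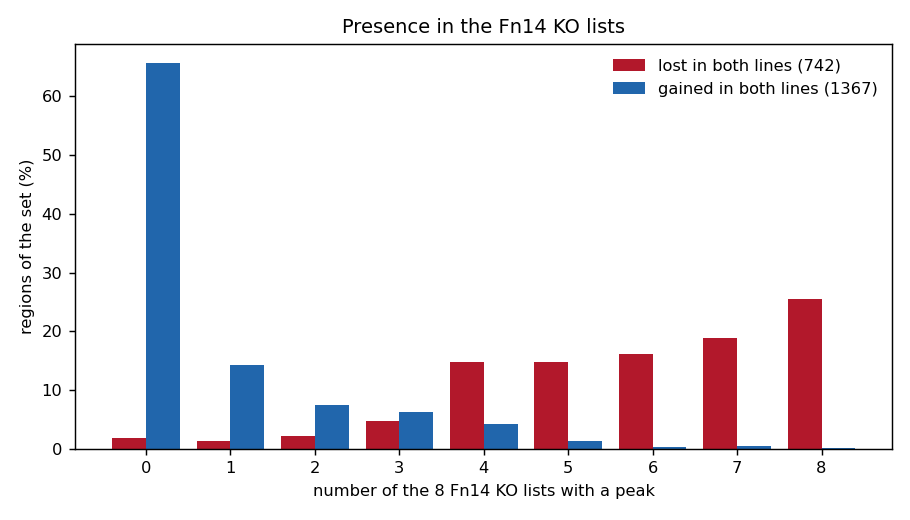
Percentage of members and of regions gained in both lines (vertical axis) by the number of the 8 Fn14 KO lists with a peak (horizontal axis). Members were most frequent at 8 lists (25.5%) and gained regions at 0 lists (65.6%). All consensus regions are not drawn.

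Presence in KO cells followed strength in control cells. Of the members ranked 1 to 248, an Hs578T KO list held 95.7% ± 0.386 (SD, n = 4), of those ranked 249 to 495 it held 87.9% ± 0.331 and of those ranked 496 to 742 it held 80.2% ± 3.15. In MDA-MB-231 KO lists the values were 74.3% ± 11.6, 56.9% ± 12.9 and 44.1% ± 15.6 (SD, n = 4). All 8 KO lists held 113 members of the upper group (45.6%) and 24 of the lower (9.72%). The 13 members without any KO peak all ranked after 248. The highest-ranked of these were near LMF1, which is needed for the maturation of lipases, RPTOR, the raptor subunit of mTORC1, TXNRD1, a thioredoxin reductase, C17orf98 and ADARB1, an RNA-editing enzyme. Their untreated control peaks were of 2.83 to 5.07-fold. Replicates disagreed on members mainly in MDA-MB-231. A peak in just 1 of 2 replicates was seen for 35.4% of members in untreated and 29.1% in TWEAK-treated KO cells, beside 14.3% and 11.0% of all consensus regions, while in Hs578T the shares were 10.6% and 11.1% beside 10.5% in both.

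A repeat of the loss in KO cells was looked for by the same rule within a line, a peak in both untreated and neither TWEAK list. In Hs578T KO cells 6 members (0.809%) were lost, beside 0.829% of all consensus regions, and 10 (1.35%) were gained, beside 1.05%. The share of members lost was thus near the background. The 6, all chosen after their values were seen, were near ANKEF1, KRT8, BCAS4, SPIDR, OR2F2 and MSRB3. In MDA-MB-231 KO cells 28 members (3.77%) were lost, beside 1.35% of all consensus regions, and 6 (0.809%) were gained, beside 0.321%. Of the 330 members with a peak in both untreated MDA-MB-231 KO lists these 28 made up 8.48%, against 2.09% of all such consensus regions, in the genotype and line where replicates disagreed most. Whether the weakness of the peaks had a part in this excess was not tested. The count was unstable. With every list trimmed to the length of the shortest, 12 of 783 members were lost in MDA-MB-231 KO cells and 16 were gained. The lost count was 32 without untreated replicate 1 and 110 without replicate 2. It was 83 and 60 without TWEAK replicates 1 and 2, and 47 without Hs578T control TWEAK replicate 2. A rule over fewer lists is easier to meet, and the member total changed too. That total was 742 to 747 where a KO list was left out. It was 1098 without MDA-MB-231 control untreated replicate 1, and 862 and 982 without Hs578T control untreated replicates 1 and 2. Without Hs578T control TWEAK replicate 2 it was 1058. The share of all consensus regions called was not computed for these omissions or for the trimmed lists. The gained count rose to 79 without untreated replicate 1, to 20 and 21 without TWEAK replicates 1 and 2, and to 10 without untreated replicate 2 or MDA-MB-231 control untreated replicate 1. In Hs578T KO cells the lost count was 11 and 14 without untreated replicates 1 and 2, 29 and 24 without TWEAK replicates 1 and 2, and 12 and 10 without Hs578T control untreated replicates 1 and 2. The gained count there was 33 and 26, then 16 and 18, without the same KO lists in that order, 23 without MDA-MB-231 control untreated replicate 1 and 19 without Hs578T control untreated replicate 2. None of the members was lost in KO cells of both lines. With just 28 and 6 members lost in the lines, and no share of all consensus regions computed, this absence cannot be read as a result.

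The lost regions lay away from start sites. At most 2 kb from a protein-coding start site were 74 members (9.97%), beside 25.1% of all consensus regions, 10.6% and 11.0% of regions lost in MDA-MB-231 or Hs578T only and 5.41% of regions gained in both lines. Introns held 279 members (37.6%, all consensus regions 30.5%), 71 touched an exon farther from a start (9.57%, all 8.97%) and 318 lay between genes (42.9%, all 35.4%). The median distance to a start site was 32.8 kb, beside 18.4 kb in all consensus regions, and 161 members (21.7%) were more than 100 kb away, beside 18.0%. Members had a median width of 1306.5 bp, beside 1702 bp. Those between genes had a peak in 63.9% of cases in MDA-MB-231 KO lists and 89.1% in Hs578T, and those near start sites in 58.1% and 89.5%, so the difference between lines was seen in both classes.

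Among the 74 members near a start site, the highest-ranked were those of DIPK1B, CDHR4, PLA2G2E, SDC3, SPARC, C6orf118, MPP7 and INHBB. CDHR4, which encodes a cadherin-related protein, was the highest-ranked of the 7 members near a start site that had a peak in all 4 Hs578T KO lists and in none of MDA-MB-231. Its member, chr3:49799452-49800283, held a start site and had untreated control peaks of 4.40 and 4.59-fold in MDA-MB-231 and 5.37 and 3.89-fold in Hs578T. The 4 Hs578T KO lists gave 3.84, 3.48, 3.73 and 6.01-fold and no MDA-MB-231 KO list had a peak. C6orf118, a gene without an assigned function, had a member over its start that was present in all 8 KO lists at 4.25 to 7.46-fold, beside 4.07 to 6.10-fold in untreated control cells. PLA2G2E, a secreted phospholipase, was also present in all 8, at 3.73 to 6.75-fold, whereas SDC3, a syndecan, was in 2 MDA-MB-231 and 4 Hs578T lists and MPP7, a scaffold of cell junctions, in 2 of each.

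The promoters of CDHR4 and C6orf118 are shown because the lost peak lay over them and because their KO patterns differed. They are from RefSeq on GRCh38.p14, 5′ to 3′ on the minus strand, from 250 bases before to 50 after the gene's start, and 29 of the 52 members that held a start site overlapped a RefSeq promoter. Capitals mark an AP-1 match in CDHR4 and a RUNX match in C6orf118.
CDHR4 promoter, chr3:49799824-49800123: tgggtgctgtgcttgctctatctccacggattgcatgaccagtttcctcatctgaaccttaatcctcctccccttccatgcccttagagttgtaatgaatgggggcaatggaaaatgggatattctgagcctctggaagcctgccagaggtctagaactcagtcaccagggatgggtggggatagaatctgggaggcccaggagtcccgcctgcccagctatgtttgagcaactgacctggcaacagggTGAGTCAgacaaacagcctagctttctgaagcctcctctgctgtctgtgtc
C6orf118 promoter, chr6:165309556-165309855: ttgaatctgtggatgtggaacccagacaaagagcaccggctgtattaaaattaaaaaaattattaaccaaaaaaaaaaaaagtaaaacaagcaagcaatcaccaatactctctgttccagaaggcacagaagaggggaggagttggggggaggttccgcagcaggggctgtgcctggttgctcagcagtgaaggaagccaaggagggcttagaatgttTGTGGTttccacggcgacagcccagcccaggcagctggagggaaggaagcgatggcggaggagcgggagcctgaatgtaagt

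INHBB, which encodes the beta B subunit of activins and inhibins, was nearest to 3 members. The widest, chr2:120343300-120349980, spanned 6681 bp over a start site, with peaks of 3.95 and 4.46-fold in MDA-MB-231 and 5.55 and 5.69-fold in Hs578T untreated control cells. In KO lists it gave 4.0 to 4.70-fold in MDA-MB-231 and 4.62 to 8.51-fold in Hs578T, without separation by treatment. The neighbouring member, chr2:120351374-120353433, touched an exon and was present in 7 of 8 KO lists, and a further one, 194 kb away, in 5. A region gained in both lines also had INHBB as its nearest gene.

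The 742 members had 667 nearest genes, of which 603 had 1 member, 54 had 2, 9 had 3 and 1 had 4. The gene with 4 was C20orf85, and those with 3 were CLXN, DISC1, INHBB, NAV3, PLPP4, SVIL, UBE3D, ZMIZ1 and ZNF703. The C20orf85 members lay 28.1 to 124 kb from its start, and the strongest, chr20:58101229-58104290, had 8.47 and 8.49-fold in MDA-MB-231 and 7.25 and 4.65-fold in Hs578T untreated control cells, and 6.92 to 9.16 and 3.69 to 5.02-fold in the KO lists of the lines. The C20orf85 member 75.5 kb away had a peak in 2 KO lists and the other 3 in all 8. Members were otherwise scattered. The median distance to another member was 738 kb, and 89 (12.0%) had one within 50 kb. Regions with a peak in all 16 lists lay at a median of 13.9 kb, close to the 14.8 kb of all consensus regions, and the nearest peak in TWEAK-treated control cells at 10.1 kb in MDA-MB-231 and 9.48 kb in Hs578T. A region gained in both lines was within 50 kb of 36 members (4.85%), beside 7.99% of all consensus regions. Nearest genes shared by the lost and the gained set numbered 82, which is 12.3% of the genes of the one and 7.0% of those of the other. The gained set had 1172 nearest genes, among 14457 genes nearest to any consensus region. Whether 82 is more than such numbers give was not tested. By chromosome, members made up from 0.708% (chromosome 14) to 1.94% (chromosome 22) of the consensus regions.

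Pathway genes were read from 16 lists of 395 genes, of which 28 (7.09%) were the nearest gene of a member, beside 3.39% of all protein-coding genes. Within 100 kb of a member lay 7.09% of the listed genes and 7.24% of all, so the lists did not stand out by that measure. The 28 genes had 30 members. Of these, 26 had a peak in all 4 Hs578T KO lists, 8 in all 4 of MDA-MB-231 and 7 in all 8, while 6 had no peak in MDA-MB-231 KO cells and none lacked one in Hs578T. Among all members the same patterns, in that order, made up 76.0%, 29.0%, 25.5%, 15.4% and 3.77%. Whether the listed genes differed from these shares was not tested.

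Of 25 extracellular matrix genes, 4 were nearest to a member, namely SPARC, COL12A1, COL5A1 and LAMC1. LAMC1, the gamma 1 chain of laminins, had an intronic member 24.7 kb from its start that was present in all 8 KO lists at 2.67 to 4.32-fold, beside 2.77 to 4.28-fold in untreated control cells. The COL5A1 member, 43.6 kb away, had a peak in 3 Hs578T KO lists and in none of MDA-MB-231. COL12A1 had 2 members 369 and 387 kb away, of which the nearer was present in the 4 Hs578T KO lists and in none of MDA-MB-231.

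Of 20 Hippo pathway genes and TEAD targets, 3 were nearest to a member, the coactivator YAP1, the TEAD cofactor VGLL3 and the phosphatase PTPN14, a restraint on YAP1. The YAP1 member, in an intron at chr11:102155516-102158464, was weak, at 2.45 and 2.88-fold in MDA-MB-231 and 2.93 and 3.53-fold in Hs578T untreated control cells, and had a peak in 7 of 8 KO lists. The VGLL3 member, 203 kb from the gene, was stronger in MDA-MB-231, at 6.78 and 6.23-fold, than in Hs578T, at 3.22 and 2.85-fold, and was present in all 8 KO lists at 3.42 to 4.58-fold. PTPN14 had its intronic member in 2 MDA-MB-231 and 4 Hs578T KO lists.

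Of 19 luminal and basal identity genes, 3 were nearest to a member, KRT8, a simple epithelial keratin, ELF3, an epithelial ETS factor, and TFAP2B. The ELF3 member, 11.1 kb away, had untreated control peaks of 2.75 to 3.38-fold and Hs578T KO peaks of 4.06 to 5.38-fold. That of KRT8 was in all 4 MDA-MB-231 KO lists and, in Hs578T KO cells, in the 2 untreated and not the 2 TWEAK lists. Of 18 genes of the epithelial-mesenchymal transition there were 2, the adhesion molecule EPCAM and the transcription factor SNAI2. The EPCAM member, 21.0 kb from the gene, had a peak in every Hs578T KO list, at 4.02 to 5.34-fold, and in none of MDA-MB-231. The SNAI2 member, 21.4 kb away, was in all 8, at 2.99 to 3.64-fold, beside 3.21 to 4.49-fold in untreated control cells.

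Of 31 receptor tyrosine kinases and ligands there were 2, VEGFA and PDGFB, the growth factors of endothelium and of mesenchymal cells. The VEGFA member was the widest of any list gene, at 7806 bp and 5.67 kb from a start, with 3.02 to 3.42-fold peaks in untreated control cells and a peak in 7 KO lists. PDGFB, 2.87 kb away, was present in the 4 Hs578T KO lists and in none of MDA-MB-231. TAGLN, a list gene that encodes an actin-binding protein of contractile cells, had a member, chr11:117198588-117199975, that held a start site and was lost in MDA-MB-231 KO cells too, with 3.23 and 3.16-fold peaks untreated and none with TWEAK, while Hs578T KO cells kept it at 2.79 to 3.74-fold.

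Axon guidance gave 4 of 33 (PLXNA4, ROBO1, SEMA3A and SEMA4D), Wnt signalling 2 of 28 (DAAM1 and WNT7B), cholesterol and lipid synthesis 2 of 18 (INSIG2 and LPIN1), and TGF-beta signalling (BMP4), integrins and focal adhesion (TNS1), cell cycle (CCND1) and nuclear receptors (NR2F1) 1 each. INSIG2, which retains the sterol sensor in the endoplasmic reticulum, had a member in all 8 KO lists, 27.8 kb from a start. None of 26 NF-κB pathway genes, 15 AP-1 factor genes or 24 interferon and STAT regulators was nearest to a member. As just 3.39% of all protein-coding genes were, lists this short cannot show an absence. Within 100 kb of a member lay 1 NF-κB pathway gene (3.85%) and 1 AP-1 factor gene (6.67%), beside 7.24% of all genes, and no interferon or STAT regulator.

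Motif matches were counted in the central 300 bases of each region on both strands, as a description of the letters there. The RUNX motif TGTGGT was found in 237 members (31.9%), beside 21.5% of all consensus regions, 24.4% of those away from start sites, 22.4% of regions gained in both lines, and 26.9% and 28.0% of regions lost in MDA-MB-231 or Hs578T only. In members away from start sites it was 33.5%. The NF-κB motif GGGNNTTCC went the other way, with 3.91% of members, 5.37% of all consensus regions and 16.5% of regions gained in both lines. The AP-1 motif TGANTCA was in 28.7% of members, 26.1% of all regions, 31.7% of those away from start sites and 33.4% of regions gained in both lines, and the TEAD motif GGAATG in 21.8%, 19.2%, 21.0% and 20.8%.

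Among other motifs, the E-box CAGCTG was in 19.0% beside 15.6% (11.8% of regions gained in both lines), and the glucocorticoid receptor motif AGAACA in 24.8% beside 19.2% (22.2%). GGGCGG, the KLF and SP motif, was in 8.76% beside 17.0%, and the ETS motif CCGGAA in 3.23% beside 6.97%, but regions away from start sites held these in 7.63% and 3.94%. The motifs AGATAA of the GATA family, TGTTTAC of the FOX family, TTGCNNAA of C/EBP, TTCCNGGAA of STAT and CACGTG, another E-box, were in 14.7%, 4.85%, 15.6%, 1.75% and 2.96% of members, beside 15.6%, 5.73%, 14.2%, 1.14% and 4.09% of all regions. A window can hold several of the 13 motifs, and their matches can share bases. In a window of 1000 bases the RUNX motif was in 61.6% of members and 52.2% of all regions, and the NF-κB motif in 10.4% and 15.2%. Regions lost in MDA-MB-231 or Hs578T only held the RUNX motif there in 61.1% and 59.4%, close to members. Away from start sites it was in 57.2% of consensus regions and 63.2% of members. The median GC content of the 300-base windows was 46.0% in members and 46.3% in all regions, and the mean number of CpG was 4.47 and 7.67.

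**Figure D5:**
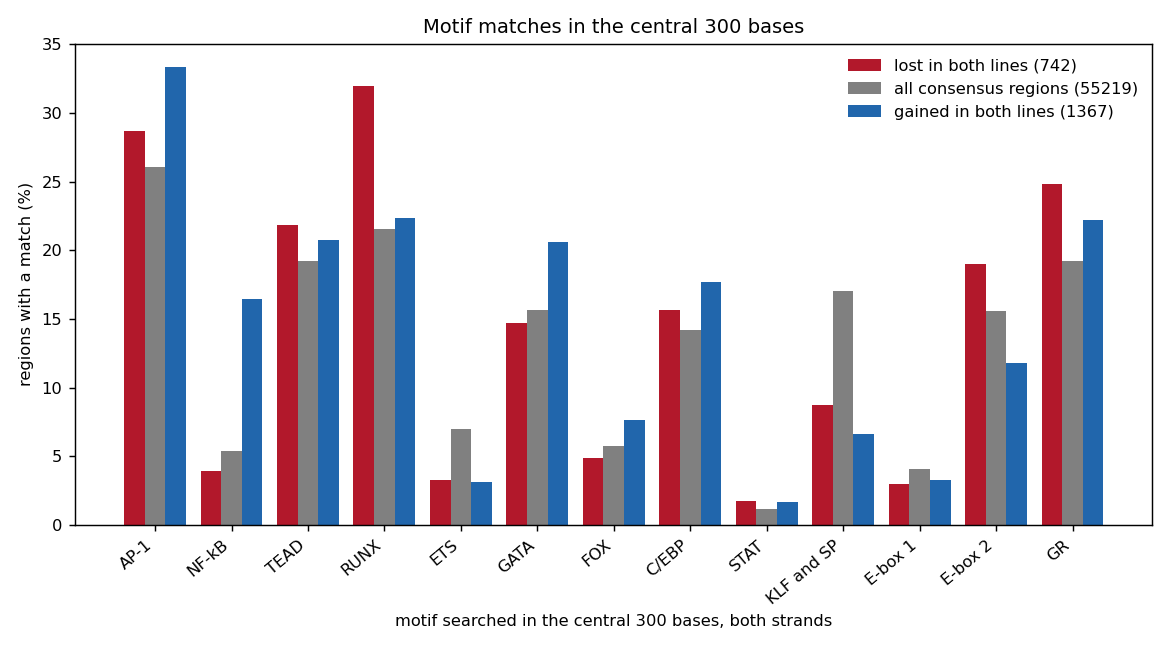
Percentage of members, all consensus regions and regions gained in both lines (vertical axis) with a match to each of 13 motifs in the central 300 bases. E-box 1 is CACGTG, E-box 2 is CAGCTG and GR, the glucocorticoid receptor motif, is AGAACA. The RUNX bar of members (31.9%) stands above those of the other sets, and the NF-κB bar of gained regions (16.5%) above that of members (3.91%).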

How the data were processed

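H3K27ac ChIP-seq peaks were analysed in 16 samples, grouped by their titles. Chromatin had been sheared to fragments of 200 to 500 bp. Per the study's methods, the authors checked reads with FastQC, trimmed with Trimmomatic, aligned to hg38 with Bowtie2, called peaks per sample with MACS2 after input subtraction and removed blacklisted regions with bedtools. Versions are not given in the sources used here. Each deposited list gives a score, a ratio (fold enrichment over background), and the p-value and q-value of each peak as −log10. The score deposited by the authors is 10 times the −log10 q-value without its decimals and was not used further. Differential binding on reads, as the authors ran with DiffBind, needs reads and was not run.

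Peaks were merged at 1 bp with Python 3.11.15, numpy 2.4.6, pandas 2.3.3 and scipy 1.17.1. All 705670 peaks lay on contigs of the hg38 reference and none ran past a contig end. The strongest peak of a region stood for it in each list. Genes were protein-coding genes of GENCODE 44, and coordinates are 1-based. The rule and the exact tests were tested on simulated data. Exact permutation tests were two-sided over lists, with Benjamini-Hochberg adjustment over 5 tests and a threshold of 0.05. Their p-values measure the spread between the 8 KO lists, 4 per line, whose replicates the methods call biological. They do not cover the choice of the control lists that formed the region sets, nor lines other than these.

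The members, gene lists and motifs were chosen with earlier results of these data known. Named were the nearest genes of the 20 highest-ranked members, of several members (at least 3), of the 5 highest-ranked members with no KO peak, of the 5 strongest over all 8 KO lists and of up to 8 near a start site, and genes of the lists. One marker and the counts of 1 gene list are not reported here. Alternatives were a −log10 q-value of at least 2, equal list lengths, merging over 500 bp, 50% coverage, the main chromosomes, other windows and distances, and leaving out each list.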

Additional observations from a re-analysis of the deposited data

How the results depend on the processing

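A stricter peak threshold, lists of equal length, merging over 500 bp, 50% coverage and the main chromosomes each kept the direction and the side of the threshold of all 5 tests over KO lists. Counts moved more, and so did the member total. Peaks with a −log10 q-value of at least 2 left 658 members, of which 3 and 4 were gained in KO cells, in MDA-MB-231 and in Hs578T. Lists of equal length gave 783 members, with 12 lost and 16 gained in MDA-MB-231 KO cells. With 50% coverage there were 1067 members. Of these, 44 were lost and 10 gained in MDA-MB-231 KO cells, 10 were lost in those of Hs578T and 14.1% lay near a start site. The share of all consensus regions called was not computed for these settings. A distance of 5 kb gave 17.3%. With all untreated peaks at a −log10 q-value of 2 or more, chosen after seeing the data, there were 377 members, of which 10 were lost and 2 gained in MDA-MB-231 KO cells and 2 lost and 1 gained in those of Hs578T. Labels exchanged within treatment left the line difference at 29.4 percentage points, at a p of 0.0556 that this design cannot go below.

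Leaving out each list in turn gave 742 to 1098 members, a TWEAK effect on the KO share of -11.0 to 4.07 percentage points and on log2 enrichment of -0.051 to 0.012, both above 0 only without MDA-MB-231 Fn14 KO untreated replicate 1. The line difference was 25.6 to 35.7 and the difference from regions lost in 1 line 8.50 to 11.5 percentage points. Members lost and gained in KO cells numbered 28 to 110 and 6 to 79 in MDA-MB-231 and 6 to 29 and 10 to 33 in Hs578T. Replicate numbers did not pair the samples (correlation of same-numbered deviations -0.0052 to 0.153 over 4 pairs of groups), and the replicate block left the TWEAK effects at -3.50 percentage points and -0.029 with exact permutation p of 0.875 and 0.375.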
